A study of Mus musculus with 12 samples.

Results

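The genes described here are 9 components of the mitochondrial machinery that builds iron-sulfur clusters: Nfs1, Lyrm4, Iscu, Hscb, Glrx5, Isca1, Isca2, Nfu1 and Bola3. They were taken by gene name from a table of 43686 gene rows, and each name matched 1 row. The table came from RNA-seq of the ventricular wall of mouse hearts that lacked Sdhaf4, an assembly factor of succinate dehydrogenase (SDH, complex II of the respiratory chain), and of control hearts. There were 6 WT and 6 KO libraries, all of C57BL/6 mice that the labels place at 2 months of age. The study's main text gives a younger age for the RNA-seq. Its reporting summary lists ages for omics work of which the oldest is close to the labels. The WT mice (labelled wild type) were Sdhaf4fl/fl littermates without Cre. The KO mice (labelled Sdhaf4-/-, named Sdhaf4Ckmm by the study) were Sdhaf4fl/fl and carried Ckmm-Cre, in which the muscle creatine kinase promoter drives the recombinase in cardiac and skeletal muscle. Both groups thus carried the floxed allele, and other cells of the KO heart were not the target of the Cre. No group carried the Cre alone, so the presence of Cre and the loss of Sdhaf4 cannot be told apart. The study describes KO hearts that enlarge, then dilate and become fibrotic, with early death. Direct effects of Sdhaf4 loss and effects of this heart disease cannot be told apart here either.

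Iron-sulfur clusters are cofactors that carry electrons or hold substrates in many enzymes, among them respiratory complexes I, II and III and lipoic acid synthase. In mitochondria a cysteine desulfurase (NFS1 with its partner LYRM4) supplies sulfur, clusters form on the scaffold ISCU, and a chaperone pair with HSCB passes them to GLRX5. The ISCA proteins then make the larger cubane clusters, which NFU1 and BOLA3 help to deliver to their clients. SDHB, an SDH subunit, is such a client, and the heart, rich in mitochondria, uses many of them. In the model the study cites, SDHAF1 and SDHAF3 help with the clusters of SDHB, while SDHAF4 binds SDHA and aids its pairing with SDHB.

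Library totals were 23747014 to 27159228 counts in WT and 26542930 to 31393393 counts in KO, and all 9 genes had at least 269 counts in every library. Sdhaf4 itself was measured at 14.3, 26.7 and 30.3 CPM (counts scaled to the size of the library; lowest, median and highest) in WT and at 2.25, 2.35 and 2.73 CPM in KO. No KO library reached the WT range, and the log2 fold change was -3.39 (SE 0.16, edgeR adjusted p = 1.95e-10). The lowest WT value belonged to WT 6, a library that was also the lowest of its group for 6 of the 9 assembly genes, and KO 3 was the highest of its group for 4 of them. Some results are given with and without both libraries. They were picked from these same levels after the data were seen. Leaving both out therefore favours lower values in KO and is no independent support. Of the cell type markers, those of cardiomyocytes summed to 62704 to 68268 CPM in WT and 51294 to 71296 CPM in KO, with 6 of 10 lower and 0 higher (median log2 fold change -0.30), and those of fibroblasts summed to 1411 to 1659 CPM in WT and 2570 to 4848 CPM in KO, with 7 of 7 higher (median 1.43). In addition 4 of 6 endothelial markers were higher, 2 of 5 macrophage and leukocyte markers were lower, 1 of 4 smooth muscle markers was lower and 1 higher, neither erythroid marker passed, and the 3 adipocyte markers stayed under 1 CPM in every library. By the same test 25.5% of all rows were lower and 25.6% higher in KO. The part of these marker shifts in the results below was not tested, and in tissue RNA fewer cells of a type and less RNA per cell cannot be told apart.

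Among the 9 assembly genes 6 were lower in KO (Nfs1, Hscb, Lyrm4, Nfu1, Isca1 and Bola3), 0 were higher, and 3 (Iscu, Glrx5 and Isca2) did not pass an adjusted p of 0.05. Over all 17155 rows tested, 25.5% were lower, 25.6% were higher and 51.1% were either by the same criterion, with p-values from the quasi-likelihood test of edgeR adjusted (Benjamini-Hochberg) over these rows. The median log2 fold change of the 9 genes was -0.23, beside 0.00 over all rows. At an unadjusted p of 0.05 the number of higher members was also 0 in edgeR, in DESeq2 and in limma-voom. For 3 of the 9 (Nfs1, Hscb and Isca1) every KO library lay below every WT library, a pattern held by 15.2% of all rows, and for 0 of the 9 every KO library lay above every WT library, as in 14.9% of all rows. The changes were of moderate size, and 0 of the 9 passed the stricter criterion of an adjusted p under 0.005 with a log2 fold change beyond 1, which 4.87% of all rows passed in the lower and 5.36% in the higher direction.

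**Figure D1:**
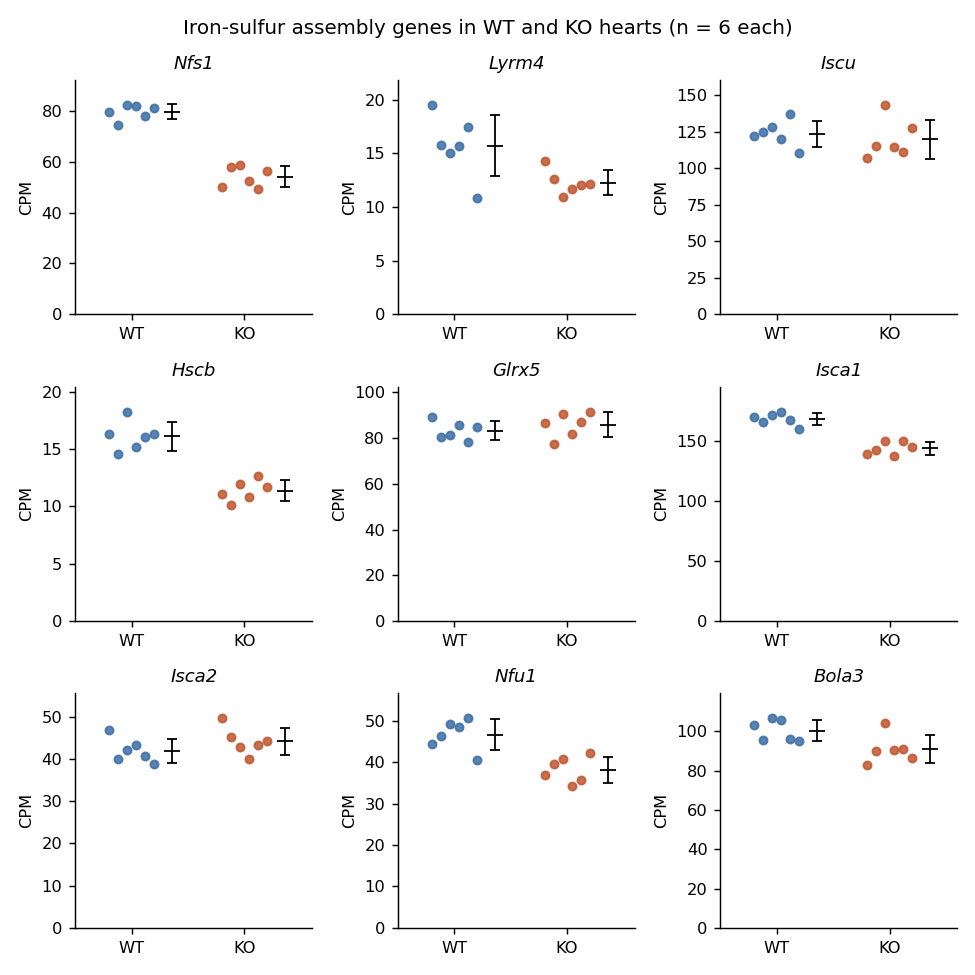
Level of each assembly gene in CPM (vertical axes, each starting at 0) in the 6 WT and the 6 KO libraries; points are libraries in the order of their numbers, and the black mark beside them is the mean with its SD. Nfs1, Hscb and Isca1 separate the groups completely, Lyrm4, Nfu1 and Bola3 are lower in KO with some overlap, and Iscu, Glrx5 and Isca2 share their range.

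Nfs1, the cysteine desulfurase that feeds sulfur into the pathway (chr2:165714675-165736311, minus strand, on the C57BL/6NJ assembly), had the smallest p of the 9. Its lowest, median and highest levels were 74.7, 80.4 and 82.4 CPM in WT and 49.2, 54.4 and 58.6 CPM in KO. Every KO library was thus well below the lowest WT library. The mean fell from 79.7 ± 2.98 to 54.1 ± 4.07 CPM (SD, n = 6), a log2 fold change of -0.56 (SE 0.05, 95% interval -0.67 to -0.45, edgeR adjusted p = 1.98e-07), or 32.1% lower. The Nfs1 row shares 148 bases with Romo1 on the opposite strand, a gene for a small inner membrane protein. The counts of Romo1 (26393 over the 12 libraries, against 21641 of Nfs1) were of the same order, and whether counting used strand is not stated, so the 2 rows are not independent where they overlap. Romo1 lay at 74.8 to 102.8 CPM in WT and 65.8 to 77.4 CPM in KO, with a log2 fold change of -0.31 (SE 0.07, edgeR adjusted p = 0.00123). A row named Gm28036 on the same strand as Nfs1 had 0 counts.

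In RefSeq the start sites of Nfs1 and Romo1 face away from each other across a short stretch of DNA, shown here because both rows were lower in KO. It spans chr2:156144187-156144232 (minus strand, RefSeq, GRCm38.p6), and the capitals mark a match to the ETS-type motif CCGGAAG on the other strand.
between the Nfs1 and Romo1 starts: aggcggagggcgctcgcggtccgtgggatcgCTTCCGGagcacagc
The same letters, on either strand, occur in 6.91% of 32851 RefSeq promoter windows of 250 bases, and in 3 of the 7 assembly genes with such a window. A match of letters is a description and shows no binding.

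Lyrm4, the small partner protein (ISD11) that holds NFS1 in its stable form (chr13:35329884-35477540, minus strand), had the lowest mean CPM of the 9 in WT, though not in KO. Its lowest, median and highest levels were 10.9, 15.7 and 19.5 CPM in WT and 10.9, 12.1 and 14.3 CPM in KO. The groups overlapped through WT 6, at 10.9 CPM, while the other WT libraries were all above the KO range. The mean fell from 15.7 ± 2.87 to 12.3 ± 1.14 CPM (SD, n = 6; log2 fold change -0.36, SE 0.11, edgeR adjusted p = 0.0135). Without both WT 6 and KO 3 the log2 fold change was -0.42 (edgeR adjusted p = 0.00101). For Lyrm4 KO 3 was the lowest KO library, so leaving it out raised the KO mean. Without KO 3 alone the log2 fold change was -0.33 (edgeR adjusted p = 0.0251), and without WT 6 alone -0.44 (0.000583). A stretch of 115 bases of the Lyrm4 transcript is identical to one of Fars2, and how reads from it were counted is uncertain.

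Iscu, the scaffold on which clusters are first built (chr5:120971061-120976650, plus strand), was measured at 110.25, 123 and 137 CPM in WT and 107, 115 and 143 CPM in KO (lowest, median and highest). The ranges coincided, with KO 3 the highest of all 12 libraries and WT 6 the lowest of the WT group. The log2 fold change was -0.05 (SE 0.07, 95% interval -0.19 to 0.10, edgeR adjusted p = 0.607). When both WT 6 and KO 3 were left out, it was -0.14 with an edgeR adjusted p of 0.0411. These 2 libraries were picked by their levels of these genes, so this value is no support for a lower Iscu. With any 1 library left out Iscu did not pass (edgeR adjusted p of 0.126 to 0.871). Part of the Iscu transcript (421 bases at 98.3% identity) resembles Gm16437, for which the table has no row.

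Hscb, the co-chaperone that hands clusters from ISCU to the next carriers (chr5:117763509-117775587, minus strand), lay at 14.6, 16.2 and 18.3 CPM in WT and at 10.1, 11.4 and 12.7 CPM in KO. All KO libraries were below all WT libraries. The mean fell from 16.1 ± 1.27 to 11.4 ± 0.921 CPM (SD, n = 6), a log2 fold change of -0.50 (SE 0.08, 95% interval -0.66 to -0.34, edgeR adjusted p = 4.3e-05). Hspa9, the chaperone that works with HSCB, had a log2 fold change of -0.09 (SE 0.05, edgeR adjusted p = 0.201) and did not pass with all libraries, though it did without KO 3 (-0.13, edgeR adjusted p = 0.0304).

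Glrx5, the monothiol glutaredoxin that accepts clusters from the scaffold (chr12:110154459-110162680, plus strand), lay at 78.2, 83.0 and 89.2 CPM in WT and at 77.6, 86.9 and 91.5 CPM in KO. KO 2 was the lowest and KO 6 the highest library of all 12, so the KO range enclosed the WT range. The log2 fold change was 0.05 (SE 0.05, 95% interval -0.06 to 0.15, edgeR adjusted p = 0.479).

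Isca1 and Isca2 encode related proteins that act together on cubane clusters. Isca1 (chr13:61269441-61286684, minus strand) lay at 160.2, 169 and 174 CPM in WT and at 137, 143 and 149.9 CPM in KO. The groups did not overlap and the spread within each was small. A log2 fold change of only -0.23 (SE 0.04, 95% interval -0.32 to -0.14) thus had an edgeR adjusted p of 0.000241. The Isca1 transcript shares 257 bases at 100% identity with Etohd2 and 128 at 98.4% with AK157302. Neither of these has a row, and a part of the Isca1 counts is uncertain. Isca2 (chr12:87978279-87980098, plus strand) lay at 38.9, 41.4 and 46.9 CPM in WT and at 39.9, 43.8 and 49.6 CPM in KO. Here the ranges lay almost on top of each other, the highest libraries being WT 1 and KO 1, and the log2 fold change was 0.07 (SE 0.06, 95% interval -0.05 to 0.20, edgeR adjusted p = 0.317).

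The 250 bases before the start of Isca1 (chr13:59769790-59770039, minus strand) and of Isca2 (chr12:84773020-84773269, plus strand), again from RefSeq on GRCm38.p6, are shown to set the promoters of this diverging pair side by side. Capitals mark matches, on either strand, to CCGGAAG (ETS-type), AAGGTCA (bound by estrogen-related receptors, ERR) and GCGC followed by any 2 bases and GCGC (NRF1), none of which overlap in these windows.
Isca1: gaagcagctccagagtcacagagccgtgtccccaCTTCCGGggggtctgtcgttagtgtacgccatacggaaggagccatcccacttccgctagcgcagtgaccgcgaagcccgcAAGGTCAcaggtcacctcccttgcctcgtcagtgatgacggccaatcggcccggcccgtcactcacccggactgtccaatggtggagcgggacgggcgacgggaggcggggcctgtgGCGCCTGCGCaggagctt
Isca2: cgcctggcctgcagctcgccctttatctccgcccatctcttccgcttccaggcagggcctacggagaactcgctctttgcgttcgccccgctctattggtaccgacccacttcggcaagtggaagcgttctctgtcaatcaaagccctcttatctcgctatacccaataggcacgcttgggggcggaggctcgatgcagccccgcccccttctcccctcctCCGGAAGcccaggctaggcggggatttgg
The Isca1 window held 1 match to each of the 3 motifs and the Isca2 window 1 match to the ETS-type motif. The ERR motif occurred in 4.08% and the NRF1 motif in 4.98% of the 32851 windows, and among the 7 assembly genes with a window each was found in Isca1 alone. Absence of a match says only that these letters are not in the window.

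Nfu1, a late-acting carrier that delivers cubane clusters to lipoic acid synthase and SDH (chr6:90727274-90748391, plus strand), lay at 40.4, 47.5 and 50.6 CPM in WT and at 34.3, 38.2 and 42.3 CPM in KO. The groups overlapped only because WT 6 (40.4 CPM) fell within the KO range, below KO 3 and KO 6. The mean fell from 46.6 ± 3.75 to 38.2 ± 3.12 CPM (SD, n = 6; log2 fold change -0.29, SE 0.07, edgeR adjusted p = 0.0016), and without both WT 6 and KO 3 the log2 fold change was -0.35 (edgeR adjusted p = 0.000282). The Nfu1 transcript shares stretches of at least 100 bases at 95% identity or more with several other genes, so a part of its counts is uncertain.

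Bola3, which acts beside NFU1 in the same delivery step (chr6:86667088-86679663, plus strand), lay at 95.3, 99.6 and 107 CPM in WT and at 83.1, 90.2 and 104 CPM in KO. All KO libraries other than KO 3 were below the lowest WT library. The log2 fold change of -0.14 (SE 0.06, 95% interval -0.26 to -0.02) passed narrowly, with an edgeR adjusted p of 0.0432. The call was lost when WT 1 (-0.14, adjusted p = 0.0653), WT 3 (-0.13, 0.0836), WT 4 (-0.13, 0.077), KO 1 (-0.12, 0.103), KO 2 (-0.14, 0.0761), KO 4 (-0.14, 0.0656), KO 5 (-0.14, 0.0691) or KO 6 (-0.13, 0.0723) was left out, all in edgeR. It was held without WT 2, WT 5, WT 6 or KO 3, and without both WT 6 and KO 3 it was -0.21 (edgeR adjusted p = 0.0026).

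Whether partners changed unequally was tested within libraries, as the log2 ratio of the counts of 2 genes, for 3 pairs by two-sided exact permutation tests with Benjamini-Hochberg adjustment over the 3; for 6 against 6 libraries the smallest p is 0.00216. The ratio of Isca1 to Isca2 was 1.86 to 2.05 in WT and 1.49 to 1.80 in KO. The groups were separate, and the mean ratio was lower in KO by a log2 difference of -0.30 (SE 0.06, n = 6, exact p = 0.00216, adjusted p = 0.00325). The ratio of Nfs1 to its scaffold partner Iscu was -0.81 to -0.44 in WT and -1.29 to -0.99 in KO, again without overlap (difference -0.51, SE 0.07, n = 6, exact p = 0.00216, adjusted p = 0.00325). For Nfs1 against Lyrm4 the ratio was 2.03 to 2.90 in WT and 1.81 to 2.42 in KO. These ranges overlapped, with the highest value in WT 6, and the difference of -0.22 did not pass (SE 0.15, n = 6, exact p = 0.186).

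**Figure D2:**
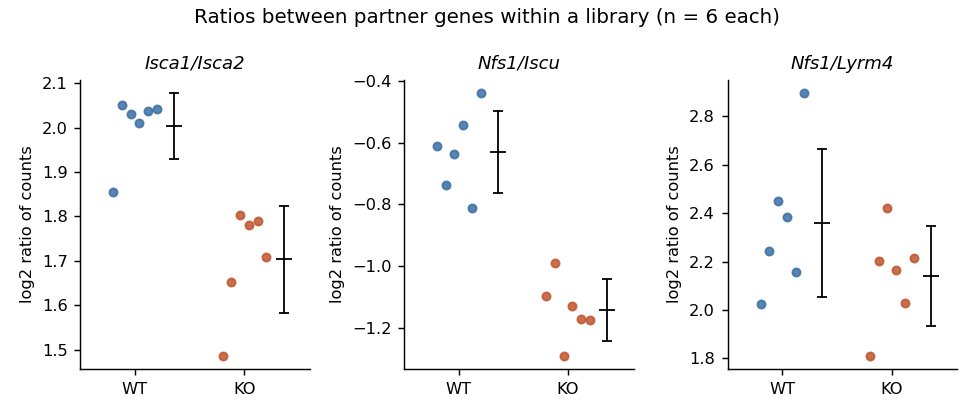
Log2 ratio of the counts of 2 assembly genes within each library (vertical axes, not starting at 0), for Isca1 to Isca2, Nfs1 to Iscu and Nfs1 to Lyrm4; points are the 6 WT and the 6 KO libraries, with mean and SD in black. The groups separate for the first 2 ratios and overlap for the third.

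Levels of different genes were compared per length, with the deposited FPKM values. In WT the order was Iscu (155 ± 9.12 FPKM, SD, n = 6), Bola3 (132 ± 5.87), Glrx5 (89.4 ± 4.89), Isca1 (67.3 ± 1.28), Nfs1 (64.7 ± 2.42), Isca2 (48.3 ± 2.96), Nfu1 (43.7 ± 2.86), Hscb (30.5 ± 2.27) and Lyrm4 (10.4 ± 1.81). The ranges of the WT libraries overlapped for the neighbours Isca1 and Nfs1 and for Isca2 and Nfu1, and for no other neighbours. In KO, Nfs1 (43.9 ± 2.61 FPKM, highest 47.35) was listed below Isca2 (50.9 ± 3.95 FPKM, lowest 47.37), whereas in every WT library it was above. This order depends on the gene length behind the FPKM, which for Bola3 was 757 bases where the table lists 2312, and for Nfs1 was 1230 where it lists 2051; the comparison of 1 gene between groups does not.

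The genes that work beside the 9, in mitochondrial iron supply, electron supply and the late targeting steps, were also mostly lower. Of 14 such genes 8 were lower and 2 higher in KO (median log2 fold change -0.26), beside 25.5% lower and 25.6% higher over all rows. Of the mitoferrins, which import iron, Slc25a28 fell by 0.89 on the log2 scale (SE 0.08) and Slc25a37 by 0.29 (SE 0.06), both without overlap. Ndufab1, the acyl carrier protein that joins the NFS1 and LYRM4 complex, fell by 0.50 on the log2 scale (SE 0.05).

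Other genes of this group were divided. Lyrm7, which serves the Rieske protein of complex III, had a log2 fold change of -0.88 (SE 0.08), and Sdhaf3, which serves SDHB, -0.31 (SE 0.09, edgeR adjusted p = 0.00807). Iba57, the partner of the ISCA proteins, had -0.32 (SE 0.07, edgeR adjusted p = 0.000702). The ferredoxins, which supply electrons, went in opposite directions: Fdx1 had -0.15 (SE 0.05, edgeR adjusted p = 0.0216) and Fdx2, the form used in cluster synthesis, 0.47 (SE 0.10, edgeR adjusted p = 0.000706), with every KO library (24.3 to 33.5 CPM) above every WT library (15.6 to 23.8 CPM). The Fdx1 call was lost without KO 4 (-0.12, edgeR adjusted p = 0.0563). Besides Hspa9, the genes that did not pass were Fdxr, the ferredoxin reductase (0.22, SE 0.11, edgeR adjusted p = 0.0886), Nubpl, which serves complex I (-0.23, SE 0.10, edgeR adjusted p = 0.0555), and Sdhaf1, another SDHB factor (-0.01, SE 0.07, edgeR adjusted p = 0.932). Fdxr passed in edgeR without KO 3 (0.27, adjusted p = 0.0389), and Nubpl without WT 2 (-0.26, 0.0468), WT 4 (-0.30, 0.00667) or KO 6 (-0.27, 0.0372). The Sdhaf1 row overlaps E130208F15Rik on the opposite strand over 1733 bases, a row with 23.4% as many counts, so the Sdhaf1 value is uncertain.

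**Figure D3:**
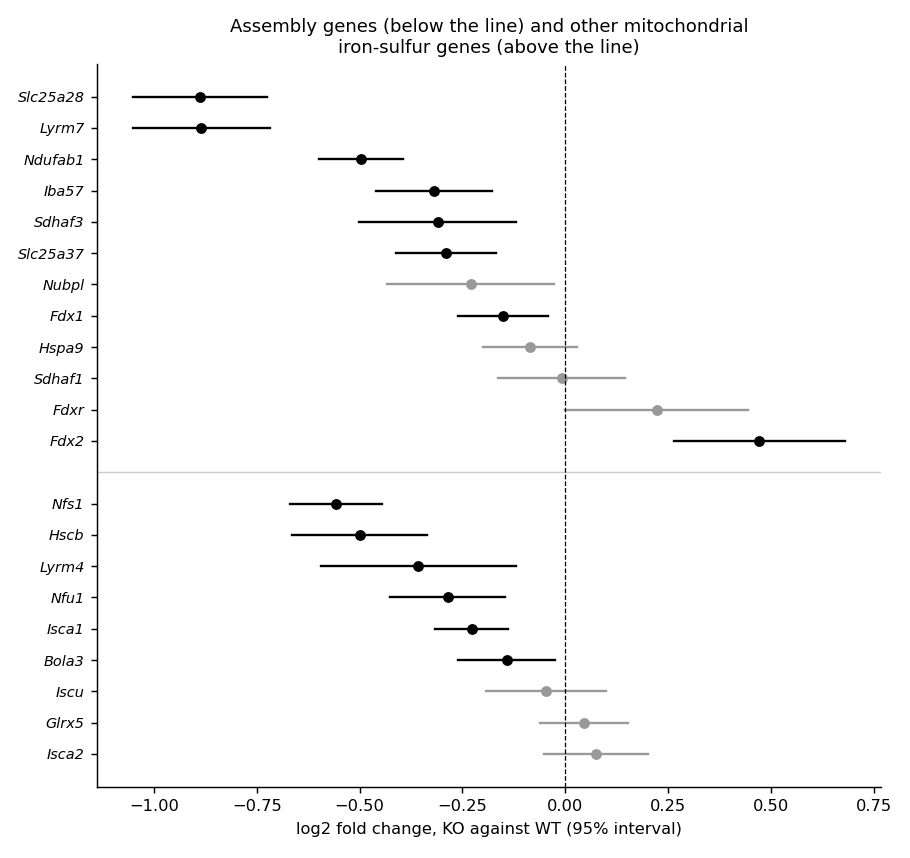
Log2 fold change, KO against WT, with its 95% interval from edgeR (horizontal axis) for the 9 assembly genes below the grey line and 12 other mitochondrial genes of the pathway above it; black marks an adjusted p under 0.05 and grey the rest. Nfs1 is the lowest assembly gene at -0.56, Slc25a28 the lowest of the other genes shown at -0.89, and Fdx2 lies to the right of 0 at 0.47.

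The cytosolic branch, which serves nuclear and cytosolic proteins, centred on a log2 fold change of -0.01 (median), with 2 genes lower and 1 higher of 10 tested (Glrx3 has no row). Over all rows 25.5% were lower and 25.6% higher, so neither count exceeds its share over all rows. Ciao2b, a targeting subunit, was lower by a log2 fold change of -0.26 (SE 0.07, edgeR adjusted p = 0.00503), and Mms19, its partner, had -0.17 (SE 0.07, edgeR adjusted p = 0.0497). The Mms19 call was held in edgeR only without WT 4 or KO 6 when 1 library was left out; without any of the other 10 libraries (WT 1, 2, 3, 5 or 6, or KO 1 to 5) it was lost, with log2 fold changes of -0.18 to -0.13 and adjusted p values of 0.0559 to 0.12. Nubp1, a cytosolic scaffold, was higher by 0.48 (SE 0.09, edgeR adjusted p = 0.000331). The Mms19 row overlaps Zdhhc16 and the Nubp1 row Tvp23a on the opposite strand, so both values are uncertain.

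Of 16 mitochondrial proteins that carry iron-sulfur clusters, or clients, 11 had lower and 2 had higher transcripts in KO (median log2 fold change -0.32). Over all rows 25.5% were lower and 25.6% higher. Sdhb, the iron-sulfur subunit of SDH, lay at 829 to 933 CPM in WT and at 603 to 725 CPM in KO. The groups did not overlap, and the log2 fold change was -0.43 (SE 0.06, edgeR adjusted p = 6.64e-06). The study, in a passage on a younger age, reports the mRNA of SDH subunits as unchanged in left ventricles of these mutants. The reason for this difference was not tested. Etfdh, which passes electrons from fatty acid oxidation to ubiquinone, had -0.71 (SE 0.07), and Ndufs1 and Ndufs8, cluster-bearing subunits of complex I, had -0.54 (SE 0.06) and -0.45 (SE 0.05). The higher ones were Mocs1, of molybdenum cofactor synthesis (0.23, SE 0.07, edgeR adjusted p = 0.0067), and Lias, lipoic acid synthase (0.15, SE 0.05, edgeR adjusted p = 0.0287). The Lias call was lost in edgeR without WT 2, WT 3, WT 4, WT 5, KO 1, KO 3 or KO 6, with log2 fold changes of 0.11 to 0.14 and adjusted p values of 0.0531 to 0.0744. Of the 3 that did not pass, Fech, the last enzyme of heme synthesis, and Cisd3, a small cluster protein of the matrix, are named after their values were seen.

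Lipoylation is a step that depends on clusters delivered by NFU1 and BOLA3. Of its 11 genes 6 were lower and 1, Lias, was higher (median log2 fold change -0.33), beside 25.5% lower and 25.6% higher over all rows. Dbt, the lipoylated subunit of branched-chain ketoacid dehydrogenase, was measured at 120 ± 7.04 CPM in WT and 41.3 ± 4.60 CPM in KO (SD, n = 6). Its log2 fold change of -1.54 (SE 0.07, edgeR adjusted p = 3.47e-11) was the most negative among the pathway, client and lipoylation genes. A row without a gene symbol on the opposite strand overlaps Dbt by 442 bases and had 15.3% as many counts. Mecr, an enzyme of mitochondrial fatty acid synthesis, had -0.52 (SE 0.07), and Gcsh, the lipoylated protein of glycine cleavage, -0.42 (SE 0.06). The genes that did not pass were Dlat and Dlst, the lipoylated subunits of pyruvate and oxoglutarate dehydrogenase, with Pdhx and Mcat, named after their values were seen. Among 21 clients outside mitochondria 8 were lower and 2 higher, with a median of -0.09, beside the same shares over all rows. Pold1, a DNA polymerase subunit (-0.59, SE 0.09), Dpyd, of pyrimidine breakdown (-0.88, SE 0.16), and Aox1, aldehyde oxidase (-0.87, SE 0.15), were lower. Cisd2, of the endoplasmic reticulum and the outer mitochondrial membrane (0.21, SE 0.05), and Xdh, xanthine dehydrogenase (0.33, SE 0.12), were higher, all with edgeR adjusted p values of 2.69e-05 to 0.0381. The Xdh call was lost in edgeR without WT 1, WT 5, WT 6, KO 3, KO 5 or KO 6 (log2 fold changes of 0.26 to 0.35, adjusted p values of 0.0517 to 0.0911).

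Within a genotype the correlations between the assembly genes varied widely. After the mean of each genotype was removed, Pearson's r of log2 CPM over the 12 libraries ranged from -0.30 to 0.76 over the 36 pairs of the 9 genes, with a median of 0.24 and 26 pairs above 0. The closest pair was Iscu and Nfu1 (0.76), followed by Isca2 and Lyrm4 (0.72) and by Isca1 and Bola3 (0.70). All points of a pair come from the same libraries and share their depth and scaling, and these values are descriptions. The median r of pairs of other genes was not computed, so whether these genes moved together more than others is not known. The 9 genes summed to 638 to 695 CPM in WT and 573 to 653 CPM in KO, where KO 3 was the highest KO library and WT 6 the lowest WT library.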

How the data were processed

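Poly-A RNA of the ventricular wall was sequenced for 6 WT and 6 KO mice, and libraries were grouped by their labels. The authors mapped the reads (the submitters' processing notes name HISAT2 2.0.5 and mm10) and deposited raw counts per gene from HTSeq, with FPKM per library made from those counts. The identifiers and coordinates are those of the C57BL/6NJ assembly, which does not match mm10; gene positions are on the former and promoter windows (RefSeq, GRCm38.p6, 7 of the 9 genes) on the latter. The strand setting is not stated in the sources used here. The length behind the deposited FPKM differed by more than 1% from the listed length in 13312 of 27883 rows. The deposited group means (scaled signal and FPKM) and the authors' own log2 fold changes and p-values were not used.

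The fit used edgeR 4.0.16 under R 4.3.3, with TMM scaling and the robust quasi-likelihood test. Its filter for low counts (filterByExpr) left 17155 rows, all 9 genes included, and p-values were adjusted over these by Benjamini and Hochberg's method. CPM was scaled with TMM. Standard errors were the log2 fold change over the square root of F. Ratios within libraries used a pseudocount of 0.5 and exact permutation tests (scipy 1.17.1). Similar transcripts were sought with blastn 2.17.0 in GENCODE transcripts. The fit was checked on simulated counts. DESeq2 1.42.0, limma-voom (limma 3.58.1), other scalings and filters, a replicate block and leaving out libraries were tried.

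The genes and lists were chosen with earlier results of these data known. Named were the 9 genes, Sdhaf4, Sdhb, the other mitochondrial genes, and from each other list the 3 genes with the smallest p in each direction among those with an adjusted p under 0.05. A few genes of these lists enter the counts and medians but are not reported here. The 5 rows most like Nfs1 were those of at least 5 CPM with the highest r within genotypes. Replicate pairs differed by a chi-square of at least 7.3 per degree of freedom, so all libraries were kept. The labels do not say how the animals were related beyond genotype, so p-values measure the spread between these samples, and counting errors alone were smaller than that spread.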

Additional observations from a re-analysis of the deposited data

Results flagged for a closer look

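In 6 of 88 groups of 6 libraries, 1 library lay apart from the others, where chance gives about 1 in 20 groups, or 4.4. KO 1 had 2.73 CPM of Sdhaf4, with the other KO libraries at 2.25 to 2.41 CPM. KO 3 had 923 CPM of Hspa9 (others 769 to 823 CPM) and 9.54 CPM of Pold1 (others 7.22 to 8.02 CPM), in each case the highest KO library. KO 6 had 12.5 CPM of Nubpl, above the 10.7 to 11.3 CPM of the other KO libraries. KO 2 had 10.0086 CPM of Nubp1, below the others at 11.3 to 11.8 CPM. For the log2 ratio of Isca1 to Isca2, WT 1 was low at 1.86, with the other WT libraries at 2.01 to 2.05. No level of an assembly gene was among these.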

How the results depend on the processing

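The number of assembly genes lower in KO was 6 under every other scaling and under DESeq2 and limma-voom. It was 5 with no filter on low counts (Bola3, edgeR adjusted p = 0.065) and 5 to 6 when 1 library was left out. Without both WT 6 and KO 3 it was 7, a setting added after the data were seen, with libraries picked by these genes' levels. No assembly gene changed direction, nor did Sdhaf4 or the log2 ratios. Of the named genes that did not pass, Sdhaf1, Dlat, Dlst and Mcat changed sign when 1 library was left out (Sdhaf1 -0.06 to 0.02). Leaving out 1 library gave log2 fold changes of -0.59 to -0.53 for Nfs1, -3.51 to -3.34 for Sdhaf4, and differences in log2 ratio of -0.33 to -0.26 for Isca1 to Isca2, -0.55 to -0.47 for Nfs1 to Iscu and -0.29 to -0.11 for Nfs1 to Lyrm4. The cytosolic genes lower in KO were 1 in place of 2, the call on Mms19 being lost, with DESeq2 size factors, with no filter, with at least 1 CPM in 6 libraries, without robust dispersions and without WT 6 and KO 3, and 1 to 2 when 1 library was left out; the cause was not tested. The clients outside mitochondria higher in KO were 1 in place of 2 with no filter and without WT 6 and KO 3, the call on Xdh being lost (edgeR adjusted p = 0.0807 and 0.107), and 1 to 3 when 1 library was left out. The numbers higher in KO without 1 library were 1 to 2 for the cytosolic genes and the mitochondrial clients, and 0 to 1 for lipoylation, Lias where it was called and Pdhx without KO 6 (edgeR adjusted p = 0.0419). Leaving out 1 library lost the call on Mms19 in 10 of 12 fits, on Lias in 7 and on Xdh in 6. Same-numbered libraries deviated together little or not at all (r -0.23 to 0.06). For replicates 1, 2 and 3 the closest KO library was the same-numbered one, so a pairing is neither shown nor excluded. With a replicate block the assembly genes lower in KO remained 6 in number, and Nfs1 had a log2 fold change of -0.56 (edgeR adjusted p = 9.52e-06). Fdx1 lost its call with the block (edgeR adjusted p = 0.0615). Nubpl passed with upper-quartile scaling (edgeR adjusted p = 0.0483) and without unannotated loci (0.0463), and Hspa9 without WT 6 and KO 3 (0.0201). Over all rows the block gave 4110 lower and 4123 higher, beside 4376 and 4391. The depth limits Lyrm4 and Hscb most, the assembly genes with the fewest counts.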

Other observations

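The 5 rows whose levels followed Nfs1 most closely within genotypes, of 10249 rows compared over the 12 libraries, were Spen (Pearson's r 0.89), a nuclear corepressor, Mov10l1 (0.89), an RNA helicase, Eftud2 (0.88), a spliceosomal GTPase, Fxr1 (0.85), an RNA-binding protein, and Hnmt (0.84), histamine N-methyltransferase. The points share libraries, depth and scaling, and these were the extremes of many rows, so the values are descriptions. Of the 5, Hnmt was lower in KO, with a log2 fold change of -1.98 (edgeR adjusted p = 1.09e-08), and the others did not pass (adjusted p of 0.058 to 0.716, log2 fold changes of -0.18 to 0.12).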
